A study of Mus musculus with 14 samples.

Results

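Aoc1 encodes diamine oxidase, and it was examined here with the genes that make, restrain and break down polyamines and with the other main histamine-degrading enzyme, Hnmt. The members were chosen by gene symbol around Aoc1, and Aoc1 itself was selected on its group difference in these same arrays, so that difference is given below as a description. Of the 10 symbols named, 8 had probesets that the platform annotation assigns to a single gene, 12 probesets in all, out of 12393 genes with such probesets in the whole table. Spermine synthase (Sms) appears in that annotation with a pseudogene in 3 probesets, which name no single gene and were not used. A further Oaz1 probeset is shared with a pseudogene in the same way and is not a member. Amd1 was not analysed here. Total RNA from mouse tumours was hybridised to Affymetrix expression arrays, 7 from control mice and 7 from Hif2alpha deficient mice, which lack a subunit of the hypoxia-inducible factors, transcription factors that oxygen destabilises. Both groups had a mixed 129 SvJ/C57Bl6 background. The labels call the second group both knockdown and deficient, and deficient below means the arrays so labelled. The driver of the deletion, the cells it reached, the age of the mice, the origin of the tumours and what the control mice carried are not given in the sources used here. Epas1, the targeted gene, did not separate the groups in its 1 probeset, at 5.84 ± 0.69 in control and 5.65 ± 0.51 in deficient arrays, a difference of -0.19 (SE 0.30, limma adjusted p = 0.807). Which part of the gene was lost is not given, so this probeset may lie outside it, and the loss itself is not shown by these arrays. Surfactant protein C (Sftpc), the defining product of alveolar type II cells, read 13.85 ± 0.06 (SD, n = 7) in the control group and 13.89 ± 0.15 (SD, n = 7) in the deficient group.

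Polyamines are small, positively charged molecules that bind nucleic acids and are needed for cell growth. Ornithine decarboxylase (Odc1) makes putrescine, spermidine synthase (Srm) and spermine synthase extend it with groups taken from decarboxylated S-adenosylmethionine, and antizymes (Oaz1, Oaz2) send ornithine decarboxylase to the proteasome while the antizyme inhibitor Azin1 binds antizymes and spares it. Spermidine/spermine acetyltransferase (Sat1) starts polyamine breakdown and export. Diamine oxidase is a secreted copper enzyme that oxidises putrescine and extracellular histamine, whereas histamine N-methyltransferase (Hnmt) inactivates histamine inside cells.

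The values are log2 probeset levels deposited by the authors, in which 43.9% of all values lay under 4, near the background floor of the method. The median level of an array was 5.19 to 5.30 for the control group and 5.13 to 5.21 for the deficient group. The array descriptions in the labels open with a number, and dropping its last digit leaves 6 leading numbers, 2 among controls and 4 among deficient arrays. What these numbers mark is not given. The Y-linked gene Eif2s3y read above 4 in 4 arrays, control 1 and 4 and deficient 4 and 7, which are also all arrays of the leading numbers 2592 and 2595. Nothing in the labels ties arrays to shared litters or cages. Arrays of a leading number were nevertheless alike, with a consensus correlation of 0.35, and each number lies within a single group. The main fit treats the arrays as independent, so its SE, intervals and p-values leave this likeness out and may be too small. With leading numbers as a random block, the Azin1 probeset 1450714_at went from 0.67 (SE 0.27) to 0.53 (SE 0.31). Srm went from 0.49 (SE 0.26) to 0.52 (SE 0.37).

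Promoter windows from RefSeq (build GRCm38.p6) are shown for Aoc1, Odc1 and Hnmt, since the groups are labelled as differing in a factor that binds DNA. A window holds 300 bases around an annotated start, most of them before it, 5′ to 3′ on the gene's strand. The table matched 8 of the 10 symbols with 10 windows. The core of the hypoxia response element was searched as ACGTG and GCGTG on both strands, and matches are in capitals. Aoc1 has 2 annotated starts on chromosome 6, at chr6:48895005-48895304 and chr6:48904736-48905035, both on the plus strand. The Odc1 window is chr12:17544623-17544922 on the plus strand and the Hnmt window is chr2:24049330-24049629 on the minus strand.
Aoc1, first start: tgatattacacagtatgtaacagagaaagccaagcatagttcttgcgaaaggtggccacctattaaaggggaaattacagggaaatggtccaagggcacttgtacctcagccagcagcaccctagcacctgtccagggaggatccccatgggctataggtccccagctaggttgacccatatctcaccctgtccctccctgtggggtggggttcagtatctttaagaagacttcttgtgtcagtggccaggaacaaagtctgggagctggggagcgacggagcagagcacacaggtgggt
Aoc1, second start: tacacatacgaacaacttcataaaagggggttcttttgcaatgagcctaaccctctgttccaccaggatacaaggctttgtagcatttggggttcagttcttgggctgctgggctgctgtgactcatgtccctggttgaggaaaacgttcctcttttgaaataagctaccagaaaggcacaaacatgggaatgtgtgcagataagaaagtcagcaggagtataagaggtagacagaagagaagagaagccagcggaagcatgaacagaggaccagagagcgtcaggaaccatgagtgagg
Odc1: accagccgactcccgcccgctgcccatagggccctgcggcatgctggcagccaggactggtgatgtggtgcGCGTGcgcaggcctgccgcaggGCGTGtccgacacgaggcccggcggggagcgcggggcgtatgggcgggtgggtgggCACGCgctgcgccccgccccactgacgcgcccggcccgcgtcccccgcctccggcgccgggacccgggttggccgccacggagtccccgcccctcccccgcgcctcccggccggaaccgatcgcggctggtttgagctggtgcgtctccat
Hnmt: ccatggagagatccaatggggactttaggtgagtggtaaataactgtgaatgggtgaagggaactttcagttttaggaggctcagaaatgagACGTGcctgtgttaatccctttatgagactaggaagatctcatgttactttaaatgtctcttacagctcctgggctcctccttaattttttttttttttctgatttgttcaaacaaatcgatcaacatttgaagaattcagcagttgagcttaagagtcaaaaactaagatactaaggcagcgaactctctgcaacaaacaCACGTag

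Neither Aoc1 window held ACGTG or GCGTG. The Odc1 window held GCGTG 3 times and the Hnmt window held ACGTG 2 times. Of the windows not printed, Oaz1 held GCGTG 3 times, Amd1 1 time and 1 Sms window 3 times. The other Sms window held ACGTG, and those of Oaz2 and Sat1 held neither. Of all 32851 windows of this length, 19.6% held ACGTG, 32.4% held GCGTG and 43.8% held at least 1 of them. The windows also differed in base composition, with 3 and 4 CG pairs for Aoc1, 4 for Hnmt and 42 for Odc1, against a median of 7.0 over all windows. A match is a description of letters in the window, and no match says only that these letters are not in it.

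Aoc1 was measured by 1 probeset (1424600_at) and was far lower in deficient tumours. Controls ran from 7.34 over a median of 8.31 to 9.86, and deficient arrays from 2.58 over a median of 4.75 to 6.33. The lowest control lay 1.00 above the highest deficient array, so the groups did not overlap. The deficient mean was 4.61 ± 1.32 against 8.36 ± 0.93 in controls, a log2 difference of -3.75 (SE 0.56, 95% interval -4.94 to -2.56), or 13.4-fold. With 3 of 7 deficient arrays under 4 the size of the fold depends on the floor, and with values under 4 set to 4 it was 11.2-fold. Aoc1 was chosen for this difference, so no p is given for it. Whether it passed a threshold is therefore no support for it, and is given only to show how far single arrays matter. An adjusted p under 0.05 over all tested probesets, which the 14 arrays together gave, was not reached without control 2, 5, 6 or 7 or without deficient 2 or 4, where the difference stayed between -3.83 and -3.50, nor when arrays of a leading number formed a random block (-3.61).

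**Figure D1:**
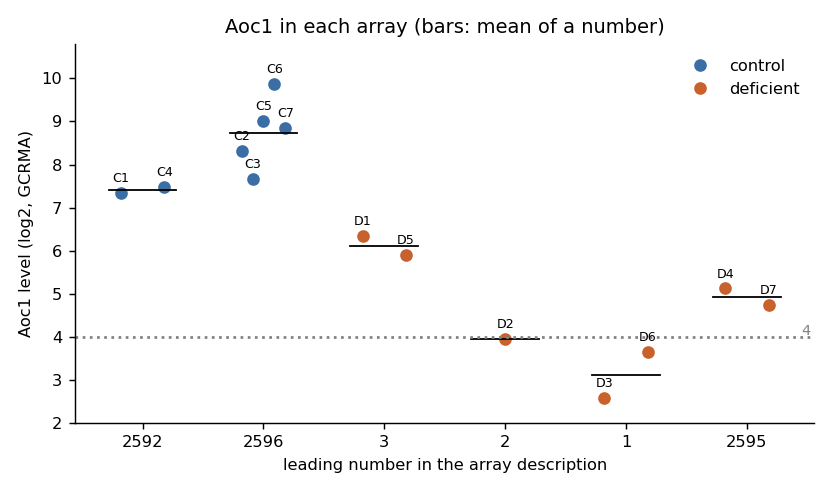
Aoc1 log2 level (vertical axis) in each of the 14 arrays, placed by the leading number in the array description (horizontal axis). Points are single arrays from controls (C) or deficient (D) tumours, bars are means of a number, and the dotted line marks 4. All 7 controls sit at 7.34 or above and all 7 deficient arrays at 6.33 or below, and the 4 numbers of the deficient group do not overlap.

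Within each group the Aoc1 levels of the leading numbers lay apart from each other. Both deficient arrays of number 3 read highest, at 6.33 and 5.90. The pair of number 2595 read 5.12 and 4.75, the single array of number 2 read 3.95, and the pair of number 1 read lowest, at 3.64 and 2.58. No array of 1 number fell among those of another in the deficient group. Among controls the pair of number 2592 read 7.34 and 7.49, under all 5 arrays of number 2596, which ran from 7.67 to 9.86. Arrays of a number were alike in general, with a consensus correlation of 0.35 over all tested probesets. The numbers lay apart in this way for 22.2% of all tested probesets among controls, 10.1% among deficient arrays and 2.5% in both groups, so the separation is not particular to Aoc1. With arrays of a number averaged, the difference over 6 averages was -3.55 (SE 0.85).

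The enzymes that build polyamines showed no difference past the threshold, an adjusted p under 0.05 in the fit over all 12701 probesets tested. Odc1 has 3 probesets. The probeset 1437711_x_at, whose suffix marks probes that can also match other transcripts, ran from 8.62 over 8.86 to 9.09 in controls and from 8.59 over 8.78 to 8.98 in deficient tumours, a difference of -0.11 (SE 0.10, limma adjusted p = 0.636). Its 95% interval of -0.33 to 0.10 is the narrowest of the 12 members, and the ranges overlapped almost wholly. The other Odc1 probesets differed by -0.17 (SE 0.13, 1438761_a_at) and -0.05 (SE 0.23, 1427364_a_at), the second with a sign that changed with the processing. Srm, the next enzyme, ran from 6.73 over 7.80 to 7.997 in controls and from 7.18 over 8.15 to 8.64 in deficient tumours. Its mean was 7.54 ± 0.52 and 8.03 ± 0.49, a difference of 0.49 (SE 0.26, 95% interval -0.06 to 1.04, limma adjusted p = 0.391), above the control mean in 6 of 7 deficient arrays.

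Among the regulators of ornithine decarboxylase the antizymes lay close together in the groups and the antizyme inhibitor lay higher in deficient tumours without passing. Oaz1 (1436292_a_at) read 12.34 ± 0.12 and 12.40 ± 0.19, a difference of 0.06 (SE 0.10, limma adjusted p = 0.817). Oaz2 read 12.15 ± 0.19 and 12.11 ± 0.33 in its brighter probeset (1426763_at), a difference of -0.03 (SE 0.15), and differed by -0.06 (SE 0.23) in the other. Both Oaz2 signs changed when single arrays were left out. The intervals, -0.16 to 0.28 for the Oaz1 member probeset and -0.35 to 0.28 for the brighter Oaz2 probeset, bound any difference in these probesets only. They do not show that the groups are alike.

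Azin1 was measured by 2 probesets, and in both all 7 deficient arrays lay above the control mean. The brighter one (1450714_at) ran from 9.96 over 10.42 to 11.67 in controls and from 10.78 over 11.12 to 11.77 in deficient tumours, a difference of 0.67 (SE 0.27, 95% interval 0.09 to 1.26, limma adjusted p = 0.279). The other (1422702_at) differed by 0.70 (SE 0.30, limma adjusted p = 0.306). The overlap between groups came from control 1 and control 4, at 11.28 and 11.67, while the other 5 controls read 10.54 or less. Those 2 controls are the ones with Eif2s3y above 4, and deficient 4 and 7, with the same signal, held the highest Azin1 values of their group at 11.64 and 11.77.

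In the 10 arrays without that Y-linked signal the brighter probeset reached at most 10.54 among controls and at least 10.78 among deficient arrays, and the other at most 9.23 and at least 9.34. This split was chosen after the values were seen, and leaving out control 1 and 4 fixed in advance that the ranges would not overlap, so nothing is read from it. In the same 10 arrays 4.25% of all tested probesets lay wholly higher in deficient tumours. The brighter probeset differed by 0.85 (SE 0.18, limma adjusted p = 0.0662) in those 10 arrays and by 0.24 between the 2 control and 2 deficient arrays with the signal. With the signal as a covariate in all 14 arrays the difference was 0.67 (SE 0.16, limma adjusted p = 0.107). As 2 arrays of each group hold the signal, this covariate could change only the SE and p. The unchanged difference is therefore no result. The adjusted p of this probeset ranged from 0.0148 to 0.999 over the other fits, and it passed in 1 of them, with array weights, where 15% of all probesets passed. Because all arrays with the signal belong to 2 leading numbers, sex and number cannot be told apart here.

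**Figure D2:**
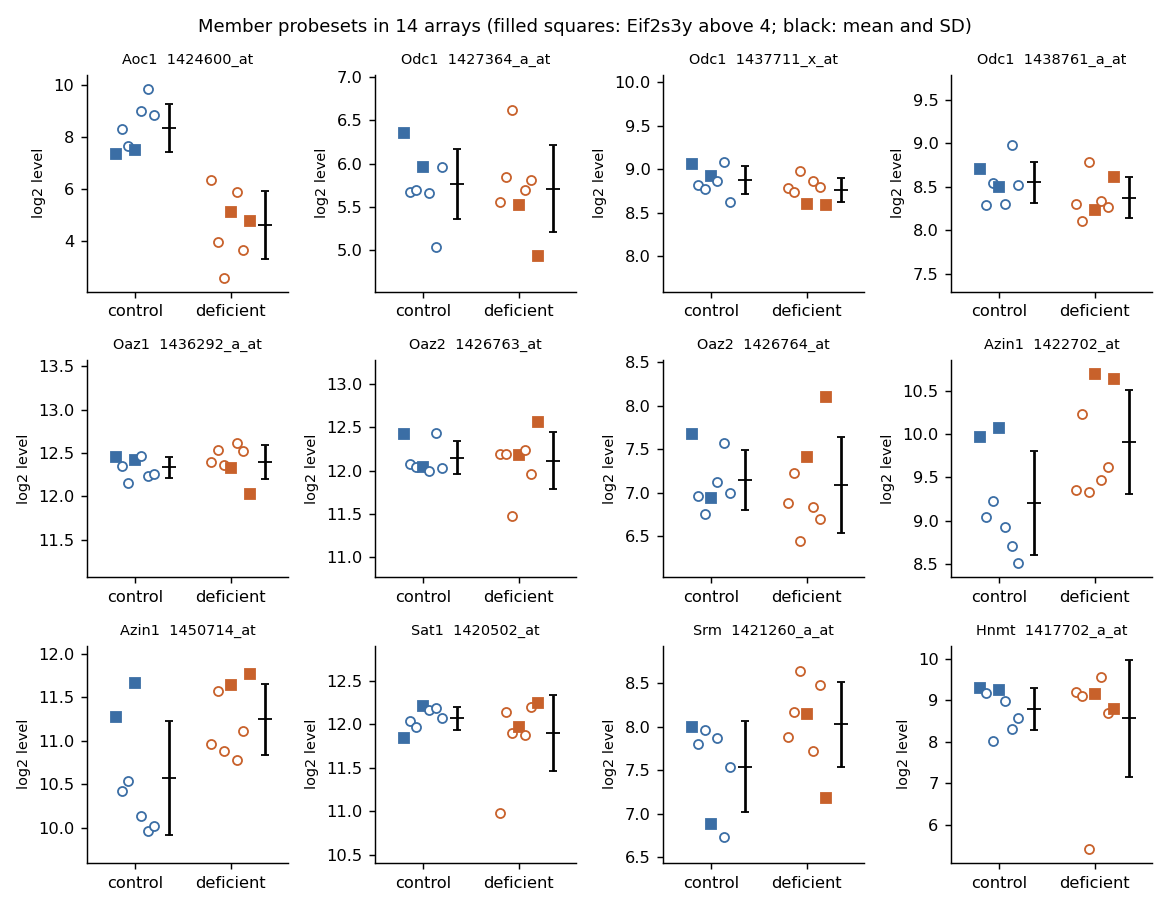
Log2 level (vertical axis, ranges differ between panels) of the 12 member probesets in control and deficient arrays. Filled squares are arrays with Eif2s3y above 4, open circles the others, and black marks give mean and SD of 7 arrays. Only in the Aoc1 panel do the groups not overlap, and the filled squares lie highest in each group in both Azin1 panels.

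The breakdown enzyme Sat1 and the methyltransferase Hnmt were each moved by 1 deficient array. Sat1, an X-linked gene, ran from 11.84 over 12.08 to 12.21 in controls and from 10.98 over 11.96 to 12.25 in deficient tumours, a difference of -0.17 (SE 0.17, limma adjusted p = 0.683). Without deficient 1, which held the low value, the difference was -0.01. Hnmt ran from 8.01 over 8.98 to 9.29 in controls and from 5.42 over 9.11 to 9.56 in deficient tumours, a difference of -0.24 (SE 0.52, limma adjusted p = 0.868). Without deficient 3 it was 0.28 (SE 0.23). The other 6 deficient arrays read 8.70 or more, inside or just above the control range.

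Across the 12 member probesets 8 were lower and 4 higher in deficient tumours, with a median difference of -0.05, beside 0.02 over all tested probesets. One, Aoc1, passed the threshold, beside 0.0394% of all tested probesets, and it is the one selected on this contrast. Both Azin1 probesets and Aoc1 had an unadjusted p under 0.05, 3 of 12 beside 14.7% of all. Ranges did not overlap for 1 of 12, again Aoc1, beside 0.496% of all. Nothing is read from these counts, since the same contrast chose Aoc1.

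Further genes of the pathway came from a list of 40 symbols, of which 27 had probesets here. Of these, 16 genes with 26 probesets were tested, 18 probesets higher and 8 lower, with a median difference of 0.13. None passed the threshold in limma. An unadjusted p under 0.05 was found for 4 of 26, a share near the 14.7% of all tested probesets, and 9 of 26 passed with array weights, where 15% of all did. The 4 were the probesets of Mtap, methylthioadenosine phosphorylase, which recycles the by-product that spermidine and spermine synthases release.

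Mtap lay higher in deficient tumours in each of its 4 probesets. The brightest (1451346_at) ran from 7.75 over 8.35 to 9.68 in controls and from 8.73 over 9.75 to 10.38 in deficient tumours, a difference of 1.04 (SE 0.32, limma adjusted p = 0.177). The others differed by 1.05 (SE 0.30), 1.30 (SE 0.35) and 1.01 (SE 0.44), with adjusted p-values of 0.158, 0.140 and 0.308. In 3 of the 4 probesets all 7 deficient arrays lay above the control mean, and in the dimmest 5 of 7 did. The ranges overlapped in every probeset, with control 3 the highest control in each.

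Histidine decarboxylase (Hdc), the enzyme that makes histamine, was well measured in both groups. Its brighter probeset (1454713_s_at) ran from 10.62 over 10.79 to 11.62 in controls and from 10.44 over 11.47 to 12.13 in deficient tumours, a difference of 0.51 (SE 0.27, limma adjusted p = 0.401), and the other differed by 0.58 (SE 0.35). The suffix of both marks probes that can match more than 1 transcript. Mast cells are a usual source of Hdc, and 7 of 11 mast cell markers (Cpa3, Mcpt4, Cma1, Tpsb2, Tpsab1, Ms4a2 and Fcer1a) read under 4 in all 14 arrays. The histamine receptor genes Hrh1, Hrh2, Hrh3 and Hrh4 failed the filter, with group means of 2.14 to 2.20, at the floor.

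**Figure D3:**
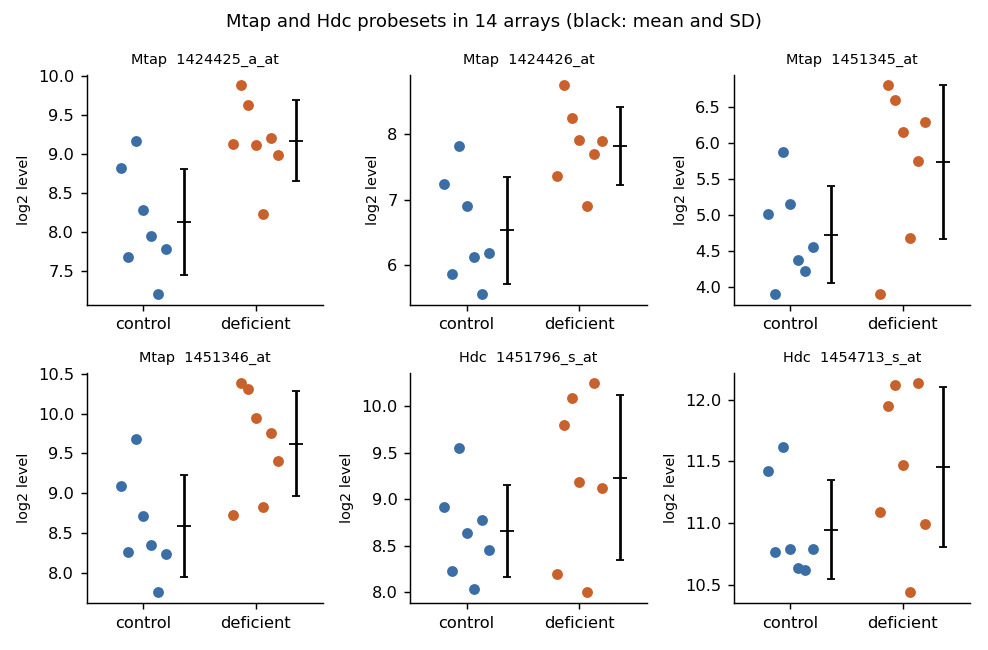
Log2 level (vertical axis, ranges differ between panels) of the 4 Mtap and 2 Hdc probesets in control and deficient arrays, with black marks for mean and SD of 7 arrays. Deficient arrays tend to lie higher, by 1.01 to 1.30 for Mtap and by 0.51 and 0.58 for Hdc, and the groups overlap in every panel.

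No other gene of supply, breakdown, transport or use passed the threshold. Mitochondrial arginase (Arg2), which makes ornithine, differed by 0.17 (SE 0.24) in its brighter probeset. Ornithine aminotransferase (Oat), which diverts ornithine, differed by -1.25 (SE 0.68), with 6 of 7 deficient arrays below the control mean. Deficient 3 read 4.48, deficient 2 and 6 read 7.74 and 7.87, and all controls read 9.02 or above. Spermine oxidase (Smox) differed by 0.03 (SE 0.26). The brightest tested probesets were those of Eif5a, the translation factor that carries the spermidine-derived residue hypusine (0.14, SE 0.09), the amino acid transporter heavy chain gene Slc3a2 (-0.20, SE 0.20) and Hdc. The transporter gene Atp13a3 differed by -0.44 (SE 0.21, limma adjusted p = 0.346) in 1 probeset, with all 7 deficient arrays below the control mean, and by -0.01 (SE 0.21) in the other. Dohh, the hydroxylase that completes hypusine, differed by -0.42 (SE 0.20, limma adjusted p = 0.352), with 6 of 7 below. The lysosomal transporter gene Atp13a2 differed by -0.40 (SE 0.25). The copper amine oxidase gene Aoc3 read 2.18 and 2.21 in the groups, at the floor, and was not tested.

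**Figure D4:**
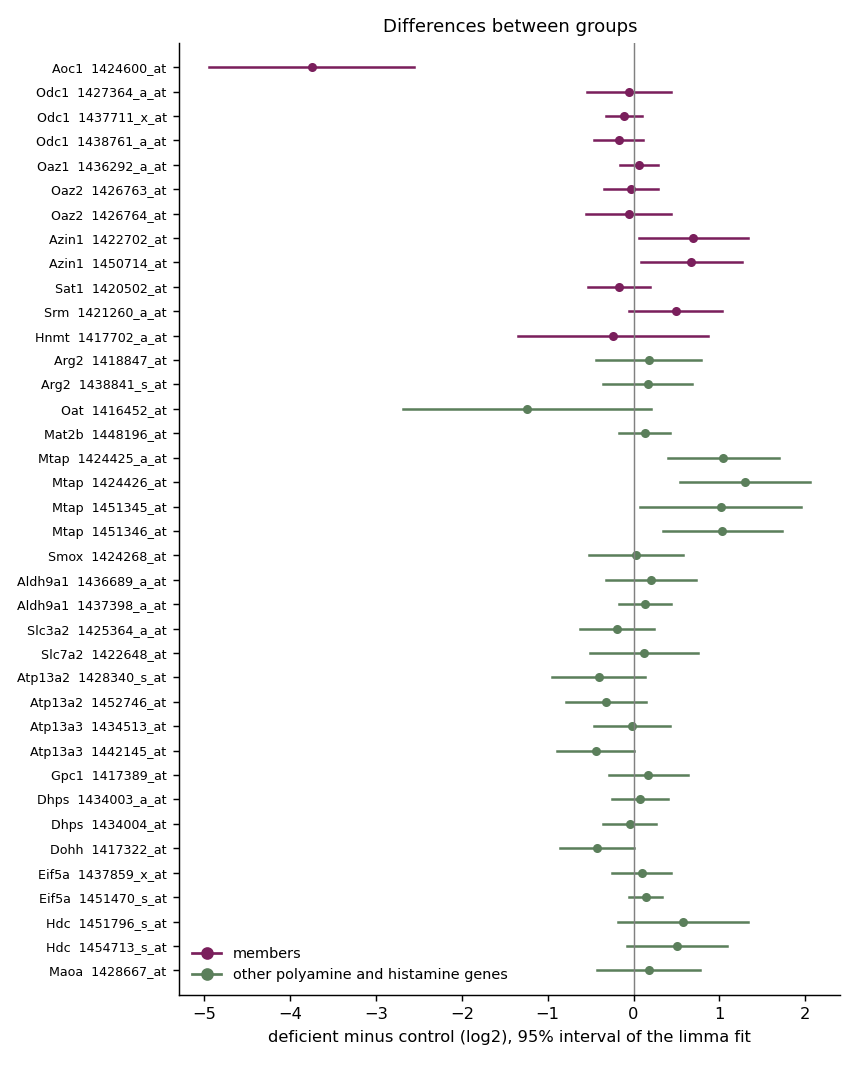
Deficient minus control log2 differences (horizontal axis) with 95% intervals for the 12 member probesets and the 26 tested probesets of other polyamine and histamine genes (vertical axis). Aoc1 at -3.75 stands alone on the left, Mtap lies at 1.01 to 1.30, and most other intervals cross 0.

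After the group means were subtracted, other genes of the pathway followed Aoc1 or ran against it from array to array. These relations use 14 arrays that share leading numbers, and many probesets share this axis: over 11701 probesets the 5% and 95% points of Pearson's r with Aoc1 were -0.75 and 0.77. They are therefore given as a description with no p. Of 37 probesets compared, 25 ran below 0 and 12 above. The median r over the 11701 probesets was -0.09, so most of those also ran below 0. Several of the 37 are probesets of the same gene, and nothing is read from the count. Mtap gave r = -0.72 to -0.83 over its 4 probesets, and the Hdc probesets gave r = -0.78 and -0.80 (Spearman's rho -0.75 and -0.76). Without deficient 1 and 3, the arrays farthest from the middle, Hdc gave -0.68 and -0.79. Atp13a3, a polyamine transporter gene, ran with Aoc1 at r = 0.79 and 0.72 (0.62 and 0.86 without those arrays), and Oat at 0.73 (0.60).

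Among members the relation with Aoc1 within groups was weaker and varied between probesets of a gene. Odc1 gave r = -0.69 (rho -0.71) in its dimmest probeset but -0.19 and -0.12 in the others. Srm gave -0.53 (rho -0.65), and Azin1 -0.44 and -0.32. Hnmt gave 0.52, which was -0.03 without deficient 1 and 3. Between members, the 2 Azin1 probesets ran together at r = 0.95 and the 2 Oaz2 probesets at 0.85.

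The genes whose pattern within groups was most like that of Aoc1 were named by Pearson's r over the 14 arrays. They were Gna14, a G protein alpha subunit gene (0.96), Dzip1, a zinc finger protein gene (0.95), Myb, a transcription factor gene (0.95, in an x_at probeset), the deubiquitinase gene Usp2 (0.95), Cldn10, a claudin of tight junctions (0.95), and Hps3 (0.94). Farthest were the sialyltransferase gene St3gal1 (-0.96) and the folate transporter gene Slc46a1 (-0.94). All 8 kept an r beyond 0.90 or -0.90 without deficient 1 and 3. Hps3 moved far less than Aoc1, at 9.49 ± 0.19 in controls and 9.58 ± 0.26 in deficient tumours. Over the 14 deposited values, which include the group difference, the closest were Cldn10 (0.96), Nme5 (0.94), Tppp3 (0.94), Paxip1 (0.94), Tuba1a (0.94) and the paraoxonase gene Pon1 (0.94).

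**Figure D5:**
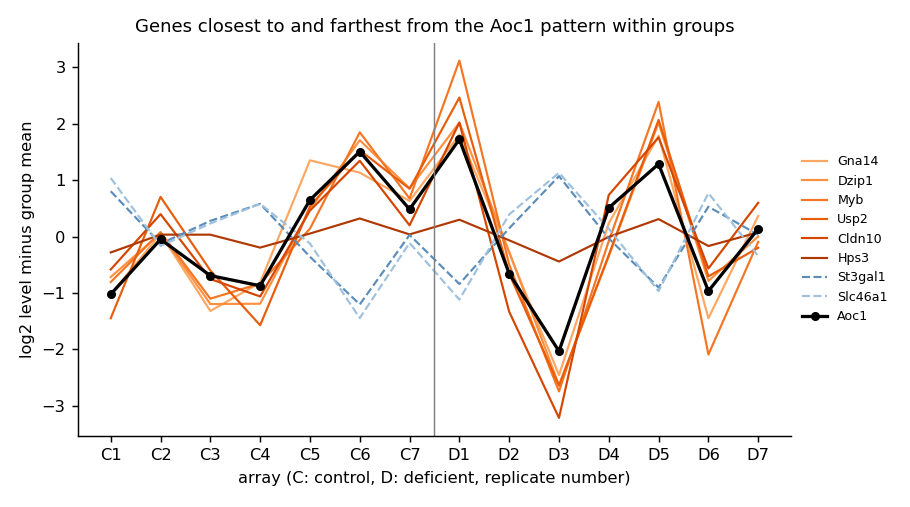
Log2 level minus the group mean (vertical axis) in the 14 arrays (horizontal axis) for Aoc1 (black), the 6 genes most like it within groups (solid) and the 2 least like it (dashed). Aoc1 peaks in deficient 1 and 5 and is lowest in deficient 3, and the solid lines follow it at r = 0.94 to 0.96.

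Markers of airway cells ran with Aoc1 across the arrays. Of 13 tested markers of club and secretory cells 12 were lower in deficient tumours, beside 47.4% of all tested probesets. Their median difference was -2.83. Their summed level was 15.44 to 16.49 for the control group against 14.28 to 15.89 for the deficient group. All 5 tested ciliated markers were lower, with a median of -2.32 and summed levels of 10.69 to 12.96 and 10.39 to 11.04, and Dnah5 read under 4 in every array. The brightest and defining club cell marker, Scgb1a1, did not read lower, at 13.78 ± 0.05 in control and 13.84 ± 0.26 in deficient arrays. The next, Cbr2, read 13.71 ± 0.17 and 12.27 ± 2.15. Scgb1a1 lay at a level like that of Sftpa1 and Sftpc, at 13.98 ± 0.11 and 13.85 ± 0.06 in controls. Whether probesets this bright can still show a drop was not tested, and a summed level weights bright probesets most. The brightest ciliated markers were Tubb4b, at 10.46 ± 0.31 and 10.11 ± 0.29, and Tppp3, at 10.27 ± 0.95 and 7.95 ± 1.37. Neither list had a member past the threshold. In bulk tissue, fewer cells of a type and less RNA per cell cannot be told apart. With the ciliated score as a covariate the Aoc1 difference was -1.85 (SE 0.37) and with the club score -1.32 (SE 0.78). Both scores also differ between the groups, so their share in the Aoc1 difference cannot be told apart from the group's. Within groups Aoc1 ran with the ciliated score at r = 0.90 and with the club score at 0.71. A score averages several genes, so the 5% and 95% points of single probesets are no measure for either. Cldn10, named above among the genes closest to Aoc1, also belongs to the club list.

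Other marker lists had smaller median differences. Median differences over tested markers were 0.03 for alveolar type II, -0.39 for alveolar type I, -0.64 for endothelial, -0.45 for fibroblast, -0.48 for macrophage, 0.28 for neutrophil and -0.29 for lymphocyte lists, beside 0.02 over all tested probesets. None of these markers passed the threshold. Lower in deficient tumours were 11 of 12 endothelial, 9 of 10 macrophage, 8 of 9 fibroblast and 7 of 8 alveolar type I markers. So were 3 of 5 lymphocyte, 2 of 9 alveolar type II, 1 of 2 mast cell and 0 of 2 neutrophil markers. A lower level in most markers of a list was thus not particular to airway cells. Within groups Aoc1 also ran with other scores, at r = 0.89 for mast cell, 0.87 for endothelial, 0.80 for alveolar type I, 0.71 for macrophage, 0.63 for alveolar type II and for fibroblast, 0.57 for lymphocyte and 0.18 for neutrophil lists, so the relation was not particular to airway markers. The summed mast cell level was 8.05 to 9.94 in controls against 6.80 to 10.65 in deficient arrays. Only 2 of 11 mast cell markers passed the filter, Gata2 and Kit, and both are also made by other cells.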

How the data were processed

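Log2 probeset levels of 14 arrays were used as the authors deposited them, made with GCRMA, per the submitters' processing notes, in a version not stated there. That method models background from the bases of each probe, then quantile-normalises arrays and combines the probes of a set, so levels near its floor are bounds. Of 22690 probesets, 20380 had a single platform symbol, 691 several and 1555 none, beside 64 controls. Non-control probesets above 4 in at least 7 arrays (12701) were fitted with limma 3.58.1 in R 4.3.3 (lmFit, eBayes, 1 group term, two-sided), with Benjamini-Hochberg adjustment over all of them. SE and 95% intervals come from that fit, which treats the arrays as independent. The fit was also run on simulated data with independent arrays. That simulation leaves out the likeness of arrays of a leading number, so it cannot test how the fit handles it.

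Members were every probeset whose single symbol was a listed gene. Named beside them were pathway probesets past the threshold, the 3 with the smallest p and the 3 brightest, and the genes most or least like Aoc1 by Pearson's r. Several Mtap, Hdc, Oat and other pathway probesets outside that rule were chosen after their values were seen. A marker gene was represented by its brightest probeset, a summed level is the log2 of the sum of linear levels, and a score is the mean deviation of tested markers. Members and lists were chosen with earlier results of these data known. Alternatives changed the filter, normalisation, floor, variance model, array weights, blocks, covariates and arrays.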

Additional observations from a re-analysis of the deposited data

Results flagged for a closer look

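In 24 groups of 7 arrays (12 member probesets in each group), 2 held a single array far from the rest, where chance gives about 1 in 20. Sat1 in deficient 1 read 10.98, and the nearest of the other deficient arrays read 11.88. The 3′ minus 5′ difference of the control probesets, a measure of RNA quality, was 2.39 in that array and 2.60 in control 1, the highest of all, where Sat1 was the lowest of the controls. With that measure as a covariate the Sat1 difference was -0.21 (SE 0.14), and its part in the low value was not tested further. Hnmt in deficient 3 read 5.42, and the nearest of the others read 8.70.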

How the results depend on the processing

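The difference of Aoc1 kept its sign under every alternative run, from -4.26 to -1.32. The filters, the variance model, the replicate block and the sex-linked covariate could not change it, only its SE and p. With single arrays left out it was -4.04 to -3.41. The difference passed the threshold in 8 of those 14 fits, a count that lends no support, since the same contrast chose Aoc1. It no longer passed with no filter (-3.75), the replicate block (-3.75), a random block of leading numbers (-3.61), arrays of a number averaged (-3.55), the ciliated or club score as covariate (-1.85 and -1.32), or only the 10 arrays with Eif2s3y under 4 (-4.26), an alternative chosen after seeing the data.

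The count of all probesets passing was 5. It was 0 with no filter, with a random block of leading numbers and with averaged numbers, 2 with the replicate block, 9 with an intensity trend and a robust prior together, 16 in the arrays with Eif2s3y under 4, 20 with the sex-linked covariate and 1900 with array weights (992 higher, 908 lower), and 0 to 85 with single arrays left out, 85 without control 4 and 0 without deficient 2 or 4. The member count of 1 became 0 with no filter, the replicate block, the random block, averaged numbers and the arrays with Eif2s3y under 4 (it was not counted with the marker score covariates), 3 with array weights and 0 to 1 with single arrays left out, and the pathway count of 0 became 9 with array weights.

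The labels do not say that replicate numbers pair the arrays. Same-numbered arrays deviated together at r = -0.23 to 0.22, and 0 of 14 arrays correlated best with its own number across groups. Such values show no pairing but cannot exclude one. As every replicate number holds a control and a deficient array, the replicate block could not change any member's difference, that of Aoc1 included. The unchanged differences under it are therefore no result, and only SE and p could move. With this block no member probeset passed the threshold.

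For the 11 other member probesets, 280 of 296 alternatives kept the sign and side of the threshold, 2 passed (both Azin1 probesets with array weights, 1.07 and 1.00) and 14 changed sign. The filters, the floor, the variance model, the replicate block and the sex-linked covariate could not change these differences. The count of 280 is therefore no measure of how stable they are. The Odc1 probeset 1427364_a_at was 0.024 after quantile normalisation and 0.30 in the arrays with Eif2s3y under 4, and the Oaz2 probesets were 0.044 and 0.053 with array weights. With single arrays left out Odc1 1427364_a_at ran from -0.20 to 0.075, Oaz2 from -0.11 to 0.073 and -0.22 to 0.052, and Hnmt from -0.41 to 0.28. The causes were not tested. The number of arrays limits the precision, and Aoc1 under 4 is a bound.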

Other observations

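Deficient 3 stood at an end of the 14 arrays for several genes of the pathway, picked after their values were seen. How often this array stood at an end over all probesets was not counted, so nothing is read from the list. Deficient 3 also had the lowest club score (-2.23), and a ciliated score of -2.25 beside the lowest, -2.29 in deficient 6. It held the lowest level of Aoc1 (2.58), Hnmt (5.42), Oat (4.48) and the brighter Oaz2 probeset (11.48). It held the highest level of Srm (8.64), of the dimmest Odc1 probeset (6.61) of the spermine oxidase gene Smox (7.82) and of the tested probeset of Dohh (6.995).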
